A study of Mus musculus with 9 samples.

Results

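The genes described here are 10 genes for neuropeptides and for proteins of the secretory granules that carry them: Tac1, Penk, Pdyn, Npy, Sst, Nts, Cck, Chga, Vgf and Scg2. They were chosen by name, as a list, and each symbol was matched to its Ensembl gene in a table of 52550 genes; all 10 were found and all 10 were among the 18699 genes that passed the filter on low counts. The study asked what FIPI, an inhibitor of phospholipase D, does to the injured spinal cord, and measured polyadenylated RNA by sequencing in adult female C57BL/6N mice 7 days after surgery. There were 3 libraries in each of 3 groups. The Sham group had the vertebral plates over the cord removed at T10 and no injury. The SCI group had a contusion of the exposed cord by an impactor and intraperitoneal DMSO, the vehicle. The SCI+FIPI group had the same contusion and intraperitoneal FIPI dissolved in DMSO, begun right after the injury and kept up until death. For the Sham animals the study's methods name no injection, so in a comparison with Sham the injury and the vehicle cannot be told apart. The labels give the tissue as spinal cord and number the libraries 1 to 3 in each group, and nothing in them states that each library is a separate animal, so the p-values measure the spread between these libraries, which may in part be technical.

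Neuropeptides are made as long precursors that are cut and trimmed inside dense-core granules, and the granules fuse with the cell membrane when calcium rises. In the spinal cord many are made by interneurons of the dorsal horn, while others are made in sensory neurons of the dorsal root ganglia, outside the cord, and carried to their endings in it. They tune the handling of pain, itch and touch. Tac1 encodes substance P and neurokinin A, Penk the enkephalins, Pdyn the dynorphins, Npy neuropeptide Y, Sst somatostatin, Nts neurotensin and Cck cholecystokinin. Chga (chromogranin A), Scg2 (secretogranin II) and Vgf belong to the granins, acidic proteins that help to form the granules and are themselves cut into peptides.

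Several of these genes are known targets of CREB, the transcription factor that acts downstream of calcium and cAMP, and its binding site, the cAMP response element, was first described in the somatostatin promoter. The 100 bases before the transcription start are printed for all 7 members that fell after injury, with both starts of Pdyn, and for Npy, which did not fall. The core of this element lies within these bases in Sst, Scg2, Chga, Cck and Tac1, and not in Nts, Pdyn or Npy. The sequences and starts are those of RefSeq on GRCm38.p6, each is written 5′ to 3′ in the direction of transcription from position -100 to -1, and capitals mark the core TGACG on either strand (CGTCA where it lies on the opposite strand) or the full element TGACGTCA, which holds the core on both strands. The windows are chr16:23890845-23890944 for Sst (minus strand), chr1:79440027-79440126 for Scg2 (minus), chr12:102554841-102554940 for Chga (plus), chr9:121495695-121495794 for Cck (minus), chr6:7554961-7555060 for Tac1 (plus), chr10:102490419-102490518 for Nts (minus), chr2:129699939-129700038 and chr2:129698659-129698758 for Pdyn (minus) and chr6:49822610-49822709 for Npy (plus).
Sst: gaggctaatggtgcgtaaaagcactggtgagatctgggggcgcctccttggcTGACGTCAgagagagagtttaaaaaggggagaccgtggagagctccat
Scg2: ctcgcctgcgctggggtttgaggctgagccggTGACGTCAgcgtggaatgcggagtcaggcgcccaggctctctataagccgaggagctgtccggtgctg
Chga: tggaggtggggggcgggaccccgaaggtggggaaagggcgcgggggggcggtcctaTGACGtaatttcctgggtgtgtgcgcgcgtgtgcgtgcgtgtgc
Cck: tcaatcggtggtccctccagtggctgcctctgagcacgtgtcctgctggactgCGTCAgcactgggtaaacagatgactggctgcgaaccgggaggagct
Tac1: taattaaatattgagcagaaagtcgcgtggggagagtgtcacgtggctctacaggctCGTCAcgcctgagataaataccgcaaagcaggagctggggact
Nts: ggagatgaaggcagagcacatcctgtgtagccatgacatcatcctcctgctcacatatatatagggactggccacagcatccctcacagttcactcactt
Pdyn, first start: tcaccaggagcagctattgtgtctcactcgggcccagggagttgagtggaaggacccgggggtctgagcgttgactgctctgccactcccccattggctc
Pdyn, second start: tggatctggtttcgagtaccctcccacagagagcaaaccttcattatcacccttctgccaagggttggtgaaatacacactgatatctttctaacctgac
Npy: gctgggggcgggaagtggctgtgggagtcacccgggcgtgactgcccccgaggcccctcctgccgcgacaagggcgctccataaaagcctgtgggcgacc

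The RefSeq table held a window of 300 bases (250 before the start and 50 after it) for 8 of the 10 members, with 2 starts for Pdyn; Penk and Vgf had no entry. The full element stood in 2 members, at -48 to -41 in Sst and at -68 to -61 in Scg2. The core alone stood at -44 to -40 in Chga, at -47 to -43 on the opposite strand in Cck, at -43 to -39 and -197 to -193 on the opposite strand in Tac1, and at -166 to -162 on the opposite strand in Nts. Neither window of Pdyn, which fell, nor that of Npy, which did not, held these letters. Of all 32851 windows in the table, 1.79% held TGACGTCA and 20.8% held TGACG on either strand. These matches describe letters in a window fixed by the RefSeq start, and binding was not measured. Penk and Vgf did not fall either and had no window, so Npy alone stands for the members that did not fall. Whether the element goes with the fall was not tested. The gene spans given below come from the GENCODE annotation, whose ends differ from these starts for some members. In it the printed bases of Sst, Tac1 and the second start of Pdyn lie inside the gene. So do most of those of Scg2 and Nts, and the positions above depend on the start chosen.

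The libraries held 20806000 to 24582377 counts, and the members had from 168 counts (Cck, SCI replicate 2) to 7971 counts (Vgf, SCI replicate 1). Levels are given as CPM, the count of a gene per 1000000 counts of its library after TMM scaling, and differences as log2 fold changes from a quasi-likelihood fit in edgeR, whose p-values were adjusted over all genes tested (Benjamini-Hochberg). A gene was called lower or higher where the log2 fold change was at least 0.5 in size and the adjusted p was under 0.05. Markers of the cells of the cord were present in every library, and their summed level differed between groups. The 12 neuron markers (the most abundant were Snhg11 and Snap25) summed to 6778 to 7080 CPM in Sham, 2413 to 3009 in SCI and 3540 to 3857 in SCI+FIPI. Inhibitory interneuron markers summed to 1317 to 1514, 423 to 568 and 629 to 737 CPM, and excitatory ones to 288 to 315, 169 to 185 and 201 to 203 CPM. The excitatory list holds Maf, named after its values were seen, which went the other way (log2 fold change 1.17 in SCI against Sham). The other 6 markers of that list summed to 250.1 to 276, 80.6 to 95.3 and 118 to 124 CPM. Among them Slc17a8, also named afterwards, was at 0.46 and not called (edgeR adjusted p = 0.119). Markers of microglia and macrophages went the other way, with 305 to 412, 1668 to 2002 and 1341 to 1542 CPM, as did those of fibroblasts and pericytes, with 489 to 912, 7119 to 9805 and 6470 to 8521 CPM. The 8 markers of dorsal root ganglion neurons summed to 14.3 to 16.0 CPM in Sham, 9.53 to 10.1 in SCI and 9.73 to 11.8 in SCI+FIPI. They differed in level, with Scn10a at 0 to 4 counts, Mrgprd at 0 to 1 and Scn9a at 102 to 279 counts per library. Of the 4 tested, after injury 1 was called lower (Scn9a, -1.15), 1 higher (Avil, 0.98) and 2 were not called. These shares were near the 22.5% lower and 24.4% higher of all genes tested. Scn9a and Avil were named after their values were seen. CPM is a share of the library. In whole tissue of this kind, fewer cells of a type, less RNA per cell and more RNA from other cells therefore cannot be told apart. The part of these cell markers in the members' differences was not tested.

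After injury, 5 of the 7 peptide precursors and 2 of the 3 granins were lower than in Sham, and none was higher past both limits. The falls were steepest for Chga, Cck and Sst, followed by Scg2, Nts, Tac1 and Pdyn. Penk stayed near its Sham level, and Npy and Vgf had higher means. The 7 of 10 members called lower compare with 22.5% of all genes tested, and the 0 called higher, by edgeR as by DESeq2, with 24.4%. At an unadjusted p under 0.05 in edgeR, 2 were higher, Npy and Vgf. The median log2 fold change was -0.67 over the members, -0.00 over all genes tested and -1.40 over the 12 neuron markers, all of which were called lower. By the adjusted p alone 8 members differed, against 65.9% of all genes, and the groups of libraries did not overlap for 7 members, against 70.5% of all genes, so those 2 shares were close to those of genes at large.

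**Figure D1:**
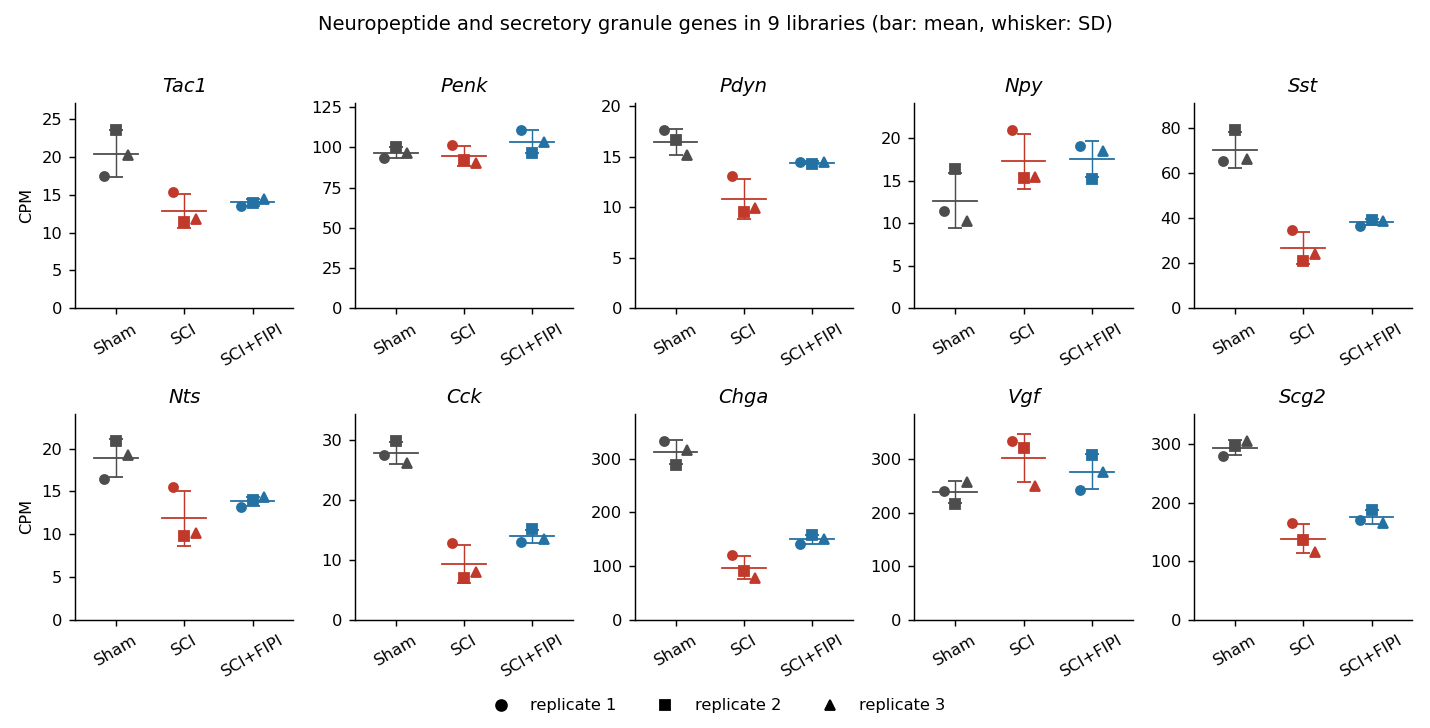
Level of each of the 10 genes in CPM (vertical axes, starting at 0) in the 3 groups, with 1 point per library, the mean as a bar and the SD as a whisker. Chga lies at 289 to 333 CPM in the Sham libraries, 78.6 to 121 in SCI and 142 to 158 in SCI+FIPI, while the 3 groups of Penk overlap.

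Chga (chr12:102554969-102565028, plus strand, GRCm38) fell furthest. Its level was 333, 289 and 316 CPM in Sham replicates 1 to 3, 121, 91.3 and 78.6 CPM in the SCI libraries and 142, 158 and 151 CPM with FIPI. All SCI libraries were below all SCI+FIPI libraries, and both groups were well below Sham. The log2 fold change after injury was -1.69 ± 0.14 (SE), with an adjusted p of 2.91e-06 by edgeR, so that its level fell by 69.0%.

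Scg2 (chr1:79434669-79440120, minus strand) encodes the other granin that fell. Sham libraries held 280, 296 and 305 CPM, SCI libraries 165, 136 and 115 CPM, and SCI+FIPI libraries 171, 188 and 166 CPM. Again the 3 groups did not overlap, although the lowest FIPI library lay just above the highest SCI library. Scg2 fell by 1.09 ± 0.11 on the log2 scale after injury (edgeR adjusted p = 3.07e-06).

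Vgf (chr5:137026392-137033351, plus strand), a granin induced by neurotrophins, did not follow the other 2. It stood at 241, 217 and 258 CPM in Sham, 334, 322 and 250 CPM in SCI, and 243, 309 and 277 CPM in SCI+FIPI. SCI replicate 3 lay within the Sham range, and so did SCI+FIPI replicate 1. The log2 difference after injury was 0.34 ± 0.12, with an edgeR adjusted p of 0.0269 and a size under the limit of 0.5.

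Sst (chr16:23889573-23890958, minus strand) is made by excitatory interneurons of the dorsal horn that relay mechanical pain. Among the members, Sst was the most abundant peptide precursor in Sham per kilobase of exon. Its CPM was 65.3, 79.3 and 66.1 in Sham, 34.7, 21 and 24.3 in SCI, and 36.7, 39.3 and 38.6 in SCI+FIPI. Every injured library was below every Sham library. The fall after injury was 1.40 ± 0.17 in log2 terms, and edgeR gave an adjusted p of 6.00e-05.

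Cck (chr9:121489824-121495694, minus strand), whose peptide opposes opioid analgesia, showed the steepest fall among the precursors that are members. It had 27.5, 29.8 and 26.2 CPM in Sham, 12.8, 6.95 and 8.02 CPM in SCI, and 13.1, 15.1 and 13.5 CPM with FIPI. SCI replicate 1 came close to the SCI+FIPI libraries and the other 2 SCI libraries were clearly lower. Cck fell by 1.59 ± 0.18 on the log2 scale after injury, with an edgeR adjusted p of 1.66e-05.

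Tac1 (chr6:7554879-7565834, plus strand), Nts (chr10:102481756-102490486, minus strand) and Pdyn (chr2:129686565-129699844, minus strand) fell less. Tac1 was at 17.4, 23.5 and 20.2 CPM in Sham, 15.3, 11.4 and 11.8 CPM in SCI, and 13.5, 13.9 and 14.4 CPM in SCI+FIPI. Its Sham libraries were all above the injured ones, while the 2 injured groups overlapped. For Tac1 the log2 fold change after injury was -0.67 ± 0.13, with an edgeR adjusted p of 0.000321.

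Nts, whose peptide takes part in pain control, had 16.5, 20.9 and 19.3 CPM in Sham, 15.6, 9.84 and 10.2 CPM in SCI, and 13.2, 14.0 and 14.3 CPM in SCI+FIPI. SCI replicate 1 was only slightly below the lowest Sham library. The log2 fold change was -0.67 ± 0.16 (edgeR adjusted p = 0.00204). Nts has the lowest exonic GC content of the 10 genes, 39.4%, and with offsets for GC content its log2 fold change was -0.43 and it was no longer called.

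Pdyn, the precursor of the peptides that act on the kappa opioid receptor, stood at 17.7, 16.7 and 15.1 CPM in Sham, 13.1, 9.51 and 9.91 CPM in SCI, and 14.5, 14.3 and 14.5 CPM in SCI+FIPI. The SCI+FIPI libraries lay between the other 2 groups without touching either. The difference between SCI and Sham was -0.60 ± 0.12 in log2 terms (edgeR adjusted p = 0.000415).

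Penk (chr4:4133531-4138819, minus strand), the other opioid precursor here, had 93.6, 100 and 96.4 CPM in Sham, 102, 92.3 and 90.2 CPM in SCI, and 111, 96.6 and 103 CPM in SCI+FIPI. The SCI range enclosed the Sham range. The log2 difference between SCI and Sham was -0.03, with a 95% interval of -0.17 to 0.11 and an edgeR adjusted p of 0.702. A noncoding gene on the opposite strand, A830012C17Rik, shares 233 of the 1634 exonic bases of Penk. It had 0 to 4 counts per library, against 1954 to 2482 for Penk, and whether the counting used strand is not given in the sources used here.

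Npy (chr6:49822710-49829507, plus strand) had the widest spread relative to its mean of the 10 members in Sham, at 11.4, 16.4 and 10.3 CPM. The SCI libraries held 21, 15.4 and 15.5 CPM and the SCI+FIPI libraries 19.0, 15.2 and 18.5 CPM. Sham replicate 2 lay above the lowest library of each injured group. The log2 difference between SCI and Sham was 0.45 ± 0.18, with a 95% interval of 0.04 to 0.86 and an edgeR adjusted p of 0.0532. Leaving out 1 library moved the difference from 0.28 (without SCI replicate 1, adjusted p = 0.186) to 0.67 (without Sham replicate 2). Npy was called higher by edgeR without Sham replicate 2 or without SCI replicate 2, and with GC offsets the difference was 0.32 (adjusted p = 0.147).

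Per kilobase of exon, as FPKM (count over library total and summed exon length), the 10 genes spanned more than an order of magnitude. In Sham the order of the mean level (± SD, n = 3) was Scg2 at 118 ± 5.22 FPKM, Chga at 114 ± 7.07, Sst at 98.2 ± 12.2, Vgf at 80.8 ± 5.99, Penk at 59.6 ± 2.68, Npy at 22.6 ± 6.10, Cck at 21.5 ± 1.71, Nts at 15.3 ± 1.94, Tac1 at 6.04 ± 0.979 and Pdyn at 5.76 ± 0.478. The libraries of Scg2 and Chga, of Chga and Sst, of Npy and Cck and of Tac1 and Pdyn overlapped, and the other neighbours did not. After injury Vgf stood alone at the top with 100 ± 15 FPKM. Penk followed at 57.2 ± 3.74 FPKM, then Scg2 at 54.3 ± 9.88, Sst at 36.5 ± 9.84, Chga at 34.7 ± 7.83 and Npy at 30.2 ± 5.67, each overlapping the next. Below a gap came Nts at 9.38 ± 2.56 FPKM, Cck at 7.01 ± 2.39, Tac1 at 3.73 ± 0.643 and Pdyn at 3.71 ± 0.685, where only Cck and Tac1 did not overlap among neighbours. The SCI+FIPI means had Vgf at the top as well, at 93.2 ± 11.1 FPKM, then Scg2 at 69.7 ± 4.58, Penk at 63.6 ± 4.33, Chga at 54.7 ± 3.12 and Sst at 53.2 ± 1.99. Scg2 overlapped Penk there, and Chga overlapped Sst. Npy, at 31.2 ± 3.72 FPKM, again stood apart from Nts at 11.1 ± 0.472 and Cck at 10.7 ± 0.822, which overlapped. Pdyn, at 5.01 ± 0.0475 FPKM, was above Tac1, at 4.12 ± 0.143, in every SCI+FIPI library.

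**Figure D2:**
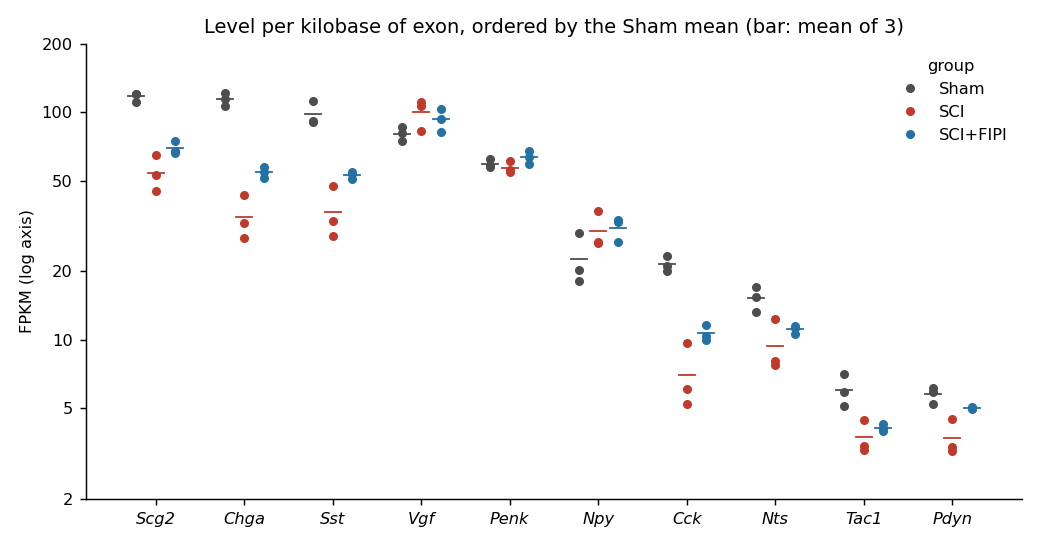
FPKM on a log axis for the 10 genes, ordered by the Sham mean, with 1 point per library and a bar at the mean of 3. Scg2, Chga and Sst lead in Sham, whereas Vgf leads in SCI at 100 FPKM and in SCI+FIPI at 93.2 FPKM.

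The second comparison, SCI+FIPI against SCI, asks what the inhibitor changed in the injured cord. Chga was the one member called, higher with FIPI. Of the 10 log2 fold changes 9 were above 0 and that of Vgf was below it. The 1 member called higher compares with 2.36% of all genes tested, and the 0 called lower, by edgeR as by DESeq2, with 0.695%; 0 were lower at an unadjusted p under 0.05 as well. By the adjusted p alone 2 members differed, Chga and Pdyn, against 9.63% of all genes. The libraries of the 2 groups did not overlap for 5 members (Pdyn, Sst, Cck, Chga and Scg2), against 30.2% of all genes. The median was 0.28 over the members, -0.00 over all genes tested and 0.45 over the 12 neuron markers, of which 4 were called higher.

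**Figure D3:**
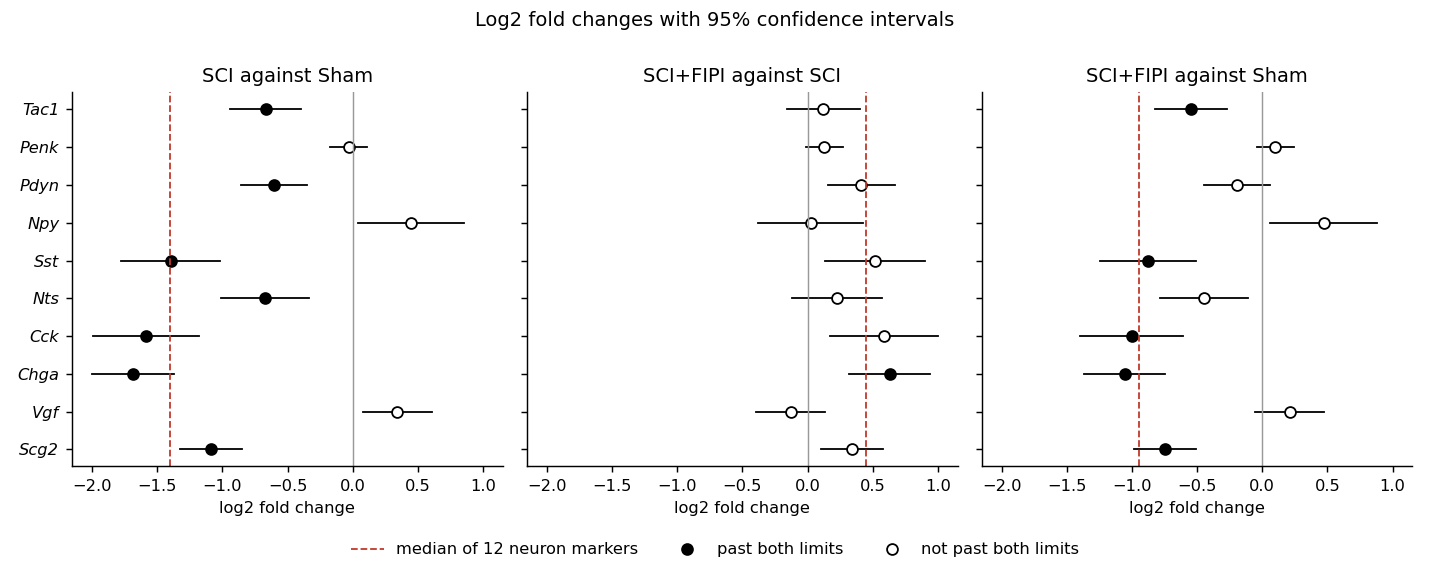
Log2 fold changes of the 10 genes (points) with 95% confidence intervals (lines) in the 3 comparisons, with filled points past both limits and the median of the 12 neuron markers as a dashed line. In SCI against Sham 7 points are filled, in SCI+FIPI against SCI only Chga, and in SCI+FIPI against Sham 5.

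For Chga the log2 fold change with FIPI was 0.63 ± 0.14, a level 1.55-fold that of SCI, and the edgeR adjusted p was 0.0234. This call was lost without SCI replicate 2, without SCI+FIPI replicate 2 and without SCI+FIPI replicate 3, where 0 members were called. SCI replicate 1 had the highest level of the 3 SCI libraries for all 10 members, and also the highest mean of the neuron markers, 7.30 log2 CPM against 7.21 and 6.99. Without it 4 members were called higher with FIPI: Chga, Pdyn, Sst and Cck. How far neuron content entered into this was not tested.

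Among the precursors that are members, Cck and Sst had the next largest values. Cck stood at 0.59 ± 0.19 (95% interval 0.17 to 1.00, edgeR adjusted p = 0.0783) and Sst at 0.52 ± 0.17 (0.14 to 0.90, adjusted p = 0.0906). Both were called by DESeq2, and by edgeR without the filter on low counts. Pdyn had a value of 0.41 ± 0.12 with an edgeR adjusted p of 0.0447, under the fold limit, and the 3 SCI+FIPI libraries spanned only 14.3 to 14.5 CPM.

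Scg2 had a log2 value of 0.34 with FIPI (95% interval 0.10 to 0.58, edgeR adjusted p = 0.0742). The intervals of the other 5 members included 0: 0.22 for Nts (-0.12 to 0.57), 0.13 for Penk (-0.01 to 0.27), 0.12 for Tac1 (-0.16 to 0.40), 0.02 for Npy (-0.38 to 0.42) and -0.13 for Vgf (-0.39 to 0.14). These intervals leave room for differences of up to 0.57 on the log2 scale in a single member, and do not show equal levels.

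SCI+FIPI against Sham sets the treated injured cord beside the uninjured one, and shares the Sham libraries with the first comparison and the SCI+FIPI libraries with the second. In it 5 members were called lower, Tac1, Sst, Cck, Chga and Scg2, against 17.0% of all genes tested, and 0 higher, against 21.2%, by edgeR as by DESeq2. At an unadjusted p under 0.05 in edgeR, 1 was higher, Npy. By the adjusted p alone 7 members differed, against 59.1%, and 7 did not overlap, against 66.3%. The log2 fold change was -1.06 ± 0.14 for Chga, -1.0 ± 0.18 for Cck, -0.88 ± 0.16 for Sst, -0.75 ± 0.11 for Scg2 and -0.55 ± 0.13 for Tac1, with edgeR adjusted p-values from 9.23e-05 to 0.00191. Nts, at -0.45 (adjusted p = 0.0244), and Npy, at 0.47 (adjusted p = 0.0479), passed the adjusted p and not the fold limit. With GC offsets neither passed in edgeR, Nts at -0.25 (adjusted p = 0.205) and Npy at 0.35 (adjusted p = 0.126), and with the replicate block the adjusted p of Npy was 0.0586. Pdyn was at -0.19 (adjusted p = 0.176), Penk at 0.10 (0.212) and Vgf at 0.21 (0.153). Tac1 was not called with offsets for GC content or without Sham replicate 2.

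To place the members beside neurons in general, the mean log2 CPM of the 12 neuron markers was subtracted from that of each member in the same library. The neuron mean itself differed by -1.35 between SCI and Sham and by 0.45 between SCI+FIPI and SCI, with no overlap between libraries in either case. A two-sided exact permutation test of 3 against 3 libraries cannot go below p = 0.1, so overlap is given in place of a call. On this scale Penk stood at -1.97, -1.83 and -1.95 in Sham and at -0.63, -0.68 and -0.49 in SCI, and Vgf at -0.61, -0.71 and -0.53 in Sham and at 1.09, 1.12 and 0.98 in SCI. Relative to the neuron markers 7 members were thus higher after injury without overlap: Npy by 1.81, Vgf by 1.68, Penk by 1.32, Pdyn by 0.74, Tac1 by 0.68, Nts by 0.66 and Scg2 by 0.25 log2 units. This is no more than for genes at large, since 86.4% of all genes tested were higher without overlap on the same scale.

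Chga was the 1 member whose level relative to the mean of the neuron markers was lower in SCI without overlap, at -0.14, -0.30 and -0.24 in Sham and -0.38, -0.69 and -0.69 in SCI. Its difference was -0.36 log2 units, and 2.43% of all genes tested were lower in this sense. Single neuron markers fell further than Chga, at -1.69: Elavl4 had a log2 fold change of -2.02, Snap25 of -1.96 and Syt1 of -1.82, and Uchl1, at -0.52, fell least (named after their values were seen). Sst and Cck differed by -0.07 (exact permutation p = 0.9) and -0.28 (exact permutation p = 0.3) and their libraries overlapped, though for Cck 2 of the 3 SCI libraries lay below all Sham libraries. With the median over the neuron markers in place of their mean, Tac1, Nts and Scg2 overlapped and Cck did not.

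**Figure D4:**
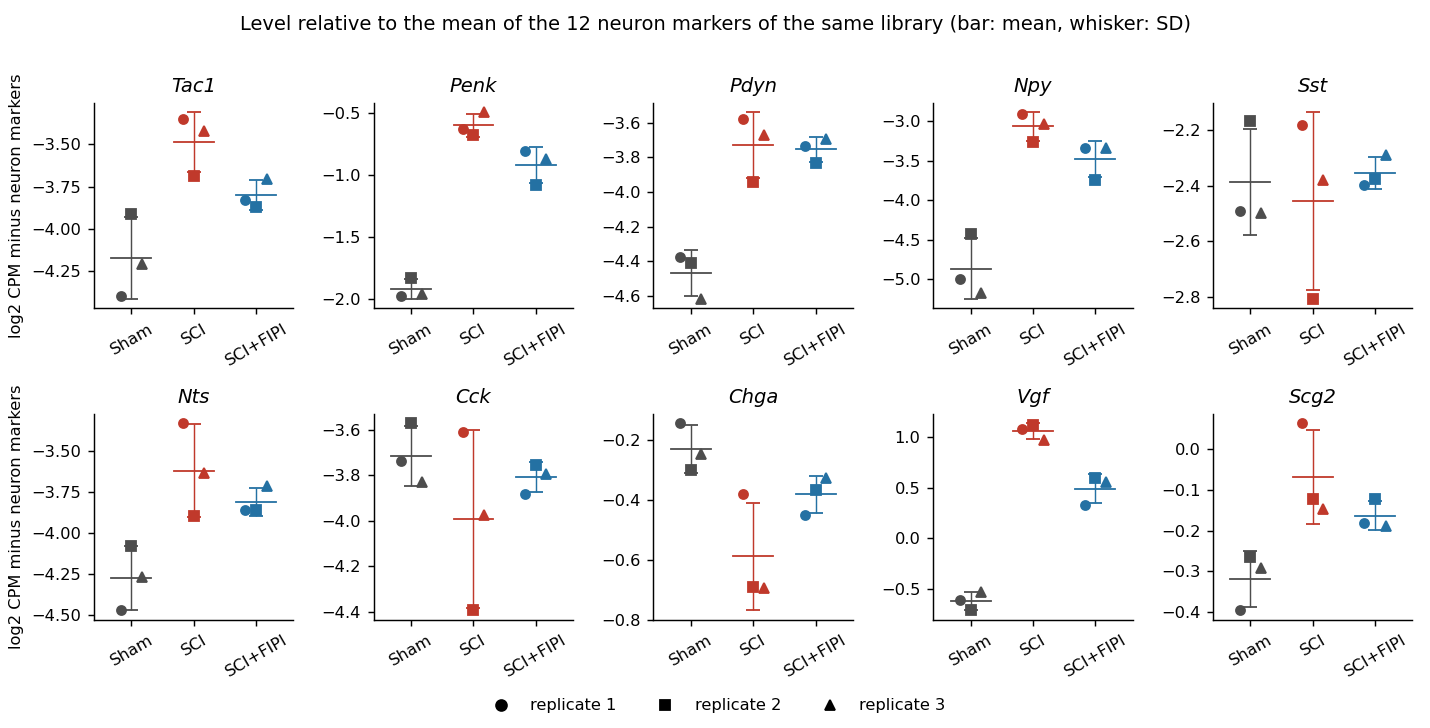
Log2 CPM of each gene minus the mean log2 CPM of the 12 neuron markers in the same library (vertical axes differ between panels and do not start at 0), with 1 point per library, the mean as a bar and the SD as a whisker. Vgf is at -0.71 to -0.53 in Sham and 0.98 to 1.12 in SCI, Chga is lower in SCI than in Sham, and the groups of Sst and Cck overlap.

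With FIPI the order turned for 4 members, which were lower than in SCI relative to the neuron markers and did not overlap, with differences of -0.57 for Vgf, -0.41 for Npy, -0.32 for Penk and -0.31 for Tac1. Of all genes tested 65.7% were lower on this scale and 1.07% higher without overlap, so the share of 4 in 10 was below that of genes at large. Chga, the member called by its CPM, was 0.21 above SCI on this scale and overlapped (exact permutation p = 0.2). With the median over the markers only Vgf was without overlap.

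The rest of the neuropeptide pathway was taken from lists of its parts. Of 36 other precursors 24 were abundant enough to test, and after injury 12 were called lower and 5 higher, and the median of the log2 values was -0.54. Of all genes tested 22.5% were lower and 24.4% higher, so the share that rose was near that of genes at large. Calca, which encodes calcitonin gene-related peptide, fell from 30.9 ± 3.78 to 9.30 ± 1.72 CPM (SD, n = 3), by 1.73 on the log2 scale. Crh, corticotropin-releasing hormone, rose from 1.71 ± 0.256 to 7.07 ± 0.873 CPM, a log2 difference of 2.04. The other 4 that rose, named after their values were seen, were Gal at 1.62, Nms at 0.81, Npff at 0.78 and Adcyap1 at 0.54, where Gal encodes galanin and Adcyap1 the peptide PACAP. With FIPI 5 of the 24 were called higher than in SCI and 0 lower by edgeR as by DESeq2 (1 was lower at an unadjusted p under 0.05 in edgeR), led by Calcb at 0.75 from 2.79 ± 0.499 to 4.69 ± 0.713 CPM. The others, also named afterwards, were Tac2 and Nxph1 at 0.61, Nppc at 0.56 and Pnoc at 0.53. Of all genes tested 2.36% were called higher with FIPI and 0.695% lower.

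Among 9 other granins and granule cargo genes, 5 were lower after injury and 2 higher, with a median of -0.80. The shares of all genes tested were 22.5% and 24.4%. Resp18 fell by 1.41 on the log2 scale, and Ecrg4, the precursor of augurin, was higher by 1.42. Chgb, the sister granin of Chga, also named afterwards, fell by 1.30 from 293 ± 9.45 CPM in Sham. With FIPI 0 genes of this list passed both limits by edgeR or DESeq2, and 5 were higher than in SCI at an unadjusted p under 0.05 in edgeR. Past both limits in edgeR, 2.36% of all genes tested were higher and 0.695% lower. Chgb stood at 0.49 (edgeR adjusted p = 0.0131), just under the fold limit.

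Of 11 enzymes that cut and trim precursors, 3 were lower after injury, 2 higher and 6 not called, with a median of -0.06. These shares were near the 22.5% lower and 24.4% higher of all genes tested. The prohormone convertases of neurons fell, Pcsk2 by 1.98 from 98.8 ± 2.10 to 25.1 ± 4.28 CPM and Pcsk1 by 1.65 from 32.4 ± 4.74 to 10.3 ± 1.20 CPM, and Pcsk6 fell by 0.50. Furin, the convertase found in nearly all cells, rose by 1.53 from 40.0 ± 0.621 to 115 ± 7.54 CPM, and the carboxypeptidase Cpz by 2.23 from 1.34 ± 0.582 to 6.38 ± 2.91 CPM. Cpe, the carboxypeptidase that trims most neuropeptides, was at -0.22 (edgeR adjusted p = 0.0109), and Pam, which amidates their ends, at -0.06 (adjusted p = 0.336). Pcsk7 was at 0.34, Cpd at 0.27, Qpct at 0.19 and Pcsk5 at -0.13, none past the fold limit. With FIPI, Pcsk2 alone was called, higher than in SCI by 0.66 at 39.7 ± 3.40 CPM, against 2.36% of all genes called higher.

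Of 21 genes for granule formation and release, 17 were lower after injury, 4 were not called and 0 were higher, by edgeR as by DESeq2 and at an unadjusted p under 0.05, with a median of -1.31. Past both limits in edgeR, 22.5% of all genes tested were lower and 24.4% higher. The fall was largest for Rab3c, a small GTPase of vesicles, at -2.02 from 237 ± 16.6 to 58.6 ± 7.76 CPM. With FIPI 7 were higher than in SCI and 0 lower by edgeR as by DESeq2 (18 and 0 at an unadjusted p under 0.05 in edgeR), led by Rab27b at 0.72 from 7.71 ± 0.756 to 12.7 ± 1.01 CPM. The shares of all genes called were 2.36% higher and 0.695% lower. Snap25 stands in this list and among the neuron markers.

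**Figure D5:**
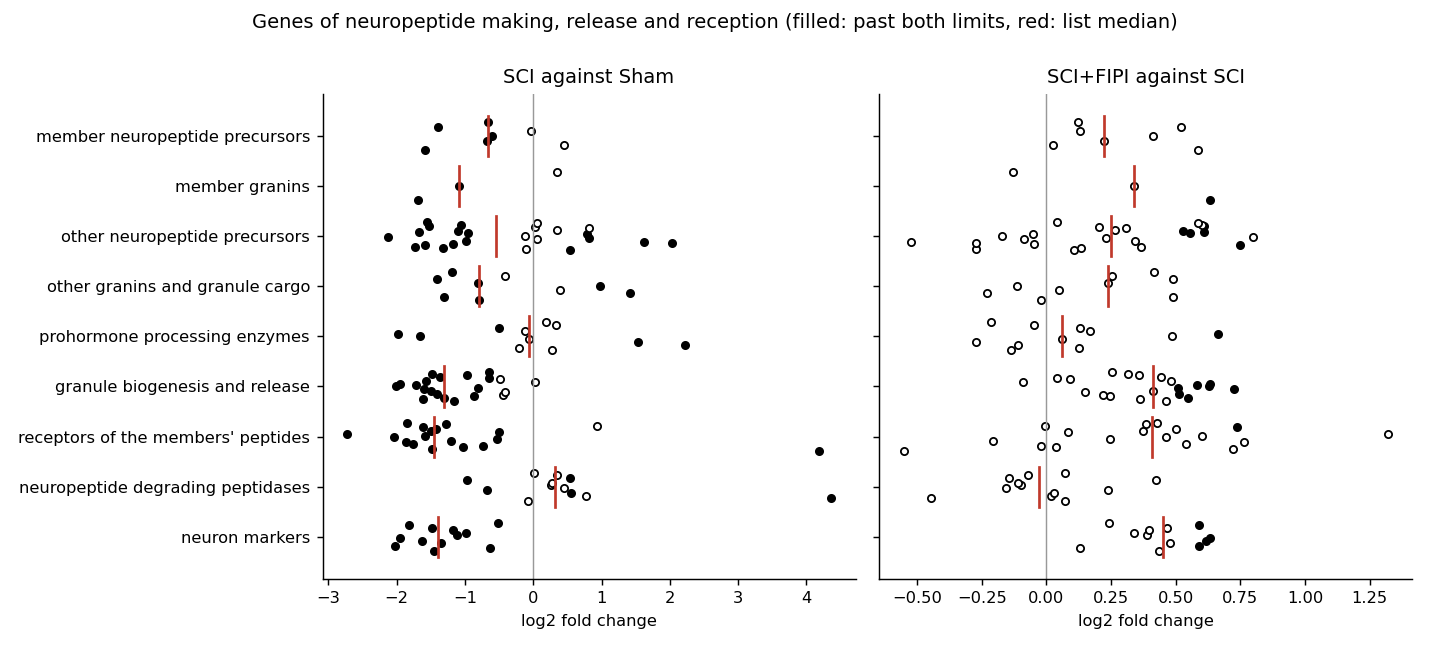
Log2 fold changes of the tested genes of each list (1 point per gene, filled where past both limits) in SCI against Sham and in SCI+FIPI against SCI, with the list median as a red line. Release genes and receptors lie mostly left of 0 after injury, with medians of -1.31 and -1.45, while the members' precursors have a median of -0.67 and the processing enzymes one of -0.06.

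Receptors of the members' peptides fell almost throughout. Of 20 listed, 18 were tested, and after injury 16 were lower, 1 higher and 1 not called, with a median of -1.45. Among all genes tested 22.5% were lower and 24.4% higher. The substance P receptor Tacr1 went from 15.2 ± 1.22 to 6.27 ± 0.612 CPM, a log2 fold change of -1.28. Tacr3, also counted in this list, was at -1.85. It is the receptor of neurokinin B, which no member encodes. The receptors of dynorphin (Oprk1, -1.58) and enkephalin (Oprd1, -2.03) were lower as well, and Oprm1, the mu opioid receptor, had only 1 to 31 counts per library. For neuropeptide Y, Npy5r was at -1.86, Npy2r at -1.76 and Npy1r at -0.74. For somatostatin, Sstr3 was at -1.61, Sstr1 at -1.50 and Sstr2 at -1.42, while Sstr4 was at 0.93 and not called (edgeR adjusted p = 0.0633).

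The neurotensin receptor Ntsr1 was at -1.20, and 2 that glia express too, Ntsr2 and Sort1, were at -0.53 and -0.51. Of the cholecystokinin receptors Cckbr was at -1.02, and the low-count Cckar fell from 0.908 to 0.321 CPM. C3ar1, the complement C3a receptor that also binds a peptide cut from VGF, rose by 4.19 from 11.7 ± 2.37 to 213 ± 25.2 CPM. The microglia and macrophage markers were called higher after injury in 8 of 8 cases, against 24.4% of all genes tested. Their part in the rise of C3ar1 was not tested. With FIPI only Sstr3 was called by edgeR, higher by 0.74 at 3.72 ± 0.228 CPM, against 2.36% of all genes called higher. DESeq2 called 3 receptors higher and 1 lower. C3ar1 stood at 145 ± 29.3 CPM with a log2 difference of -0.55 (edgeR adjusted p = 0.0889).

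Of 12 peptidases that degrade released peptides, 3 were higher after injury, 2 lower and 7 not called, with a median of 0.31. These shares were near the 24.4% higher and 22.5% lower of all genes tested. Anpep, aminopeptidase N, which cuts enkephalins and is also found on myeloid cells, rose by 4.36 from 8.23 ± 3.59 to 171 ± 12.7 CPM. Mme, neprilysin, which cuts both enkephalins and substance P, fell by 0.98 from 20.3 ± 1.65 to 10.3 ± 0.570 CPM. With FIPI 0 of the 12 were called by edgeR or DESeq2, and 2 were higher than in SCI at an unadjusted p under 0.05 in edgeR. Among all genes 2.36% were called higher by edgeR and 0.695% lower.

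Over all 9 libraries, the genes whose log2 CPM was most like that of each member were sought among the 14543 genes whose log2 CPM averaged 1 or more. The points share the 3 groups and their libraries, so the Pearson correlations describe a like pattern over these libraries and are given with no p. Chga was matched most closely by Ckmt1 and Ccdc184, both at r = 0.999. Sst was matched by Ndufb10 (0.996) and Kcnip2 (0.993), Cck by Ptprr (0.996) and Lemd1 (0.995), and Scg2 by Rcan2 and Magi2 (both 0.995). Pdyn was closest to Rab3b (0.991), a vesicle GTPase of the release list, and Camk2n2 (0.987). Lower values were found for Tac1 with Gm2011 (0.976) and Gm45767 (0.972), Nts with Smim26 (0.972) and Pbx3 (0.971), Npy with Cmbl (0.934) and Pgap2 (0.933), Vgf with Gm15050 (0.923) and Inpp5k (0.920), and Penk with AA986860 (0.909) and Gm30238 (0.886).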

How the data were processed

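The authors deposited raw counts of sequencing reads per Ensembl gene for 9 spinal cord libraries, made from poly(A) RNA on an Illumina platform. The submitters' processing notes name GRCm38 and R 4.2.3; the aligner, the counter, the annotation release and the use of strand are not given in the sources used here. Gene symbols, positions and exon lengths came from GENCODE M21 on GRCm38, which held 52403 of the 52550 genes. Of 192 listed symbols 191 were in the table.

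Counts were filtered with filterByExpr by group, scaled with TMM factors of 0.985 to 1.02 and fitted over all 9 libraries with edgeR 4.0.16 (glmQLFit, robust, and glmQLFTest; 6 residual degrees of freedom; common biological coefficient of variation 9.30%) in R 4.3.3, with 1 mean per group. Log2 CPM used a prior count of 2. The fit was tested on simulated data. Alternatives were RLE factors, no filter, at least 10 counts in every library, no fold limit, a replicate block, GC offsets (lowess in each library, span 0.3), only the groups compared, DESeq2 1.42.0 and leaving out each library; levels relative to neuron markers were repeated with a prior count of 0.5 and the median of the markers. Intervals are at 95%, and each SE was derived from the log2 fold change and its F statistic.

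The 10 genes and all lists were chosen with earlier results of these data known. The text names the members, for each list the largest rise and fall among called genes whose log2 CPM averaged 1 or more, the receptors and processing enzymes, the 2 most abundant neuron markers, 2 ganglion markers at or near 0, and the 2 genes most like each member; others are marked as named afterwards. Lists of motor neuron, astrocyte, oligodendrocyte and Schwann cell markers were also counted: in SCI against Sham, 5 of 6, 1 of 7, 3 of 7 and 0 of 5 were called lower and 0, 3, 0 and 1 higher. The shares of all genes tested were 22.5% and 24.4%.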

Additional observations from a re-analysis of the deposited data

How the results depend on the processing

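With 3 libraries per group the fit has 6 residual degrees of freedom, and the tests and intervals also draw on the spread shared over genes. Counting alone gives a CV of 7.72% at the lowest member count, 168, against a common biological CV of 9.30%. The CV within a group ran from 0.862% for Pdyn in SCI+FIPI to 33.8% for Cck in SCI. The part of counting error in this spread was not tested. The count of members called was 7 in SCI against Sham, 1 in SCI+FIPI against SCI and 5 in SCI+FIPI against Sham, and it was the same with RLE factors, at least 10 counts in every library, a replicate block or only the groups compared. In SCI against Sham it ran from 6 to 8 over all alternatives and in SCI+FIPI against Sham from 4 to 7. In SCI+FIPI against SCI it was 3 with no filter, 3 with DESeq2 and 2 with no fold limit, and from 0 to 4 when a library was left out, where SCI replicate 1 (4 called) and SCI replicate 2, SCI+FIPI replicate 2 and SCI+FIPI replicate 3 (0 called) decided it. The causes were not tested. Members without overlap relative to the neuron markers in SCI+FIPI against SCI were 4, and 1 with the median over the markers. Over single members 483 values kept direction and side of the limits, 12 passed them newly, 8 no longer did and 7 changed sign. Penk in SCI+FIPI against Sham was at -0.0076 with GC offsets and at -0.010 with the replicate block and GC offsets. When a library was left out, Penk in SCI against Sham ran from -0.085 to 0.0070 and Npy in SCI+FIPI against SCI from -0.054 to 0.193. Of 9 same-numbered pairs of libraries 1 had deviations correlated over 0.1 (range -0.07 to 0.11), and 4 of 9 libraries correlated best with their own number. With 3 libraries per group these values cannot show whether the numbers stand for shared handling. With the replicate block 8744, 555 and 7115 genes were called in the 3 comparisons, against 8780, 572 and 7128 without it, and it changed no member's call past both limits. Leaving out a library moved the count of all genes called in SCI+FIPI against SCI between 189 (without SCI+FIPI replicate 2) and 1038 (without SCI replicate 1).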
